A study of Mus musculus with 12 samples.

Results

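Genomic imprinting leaves a gene active mainly from the copy of a single parent. Methylated CG dinucleotides laid down in the germ line at control regions mark which copy that is, and many imprinted genes set how much a tissue grows. In the blood system several of them are known for acting in long-lived stem cells, around the balance between rest and division. The 10 genes described here are H19, Igf2, Meg3, Ndn, Grb10, Peg3, Plagl1, Igf2r, Gnas and Mest. They were taken as a named list, and all 10 were found among the 37187 genes of the expression table. The table gives 1 total per gene and does not separate the parental copies.

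RNA was measured in LSK cells, the fraction of mouse bone marrow without lineage markers and with Sca-1 and c-Kit, which holds stem cells and multipotent progenitors. The 4 groups were wild-type (WT), Tet2 KO, Traf6 KO and the double knockout Tet2;TRaf6 dKO (dKO), with 3 libraries each. The Tet2 protein oxidises methylated cytosine of DNA. The Traf6 protein is a ubiquitin ligase in signalling from Toll-like and interleukin-1 receptors. The labels name the genotypes without the deleted exons, any Cre driver, the strain, age or sex of the mice, or whether each library is from an animal of its own. If not, the p-values below measure technical spread only. Expression is given as signal, the number of reads on a gene divided by a scaling factor of its library, so that 1 read was worth 0.518 to 1.79 units of signal. In bulk RNA fewer expressing cells and less RNA per cell cannot be told apart.

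Between 22169673 and 53921402 reads per library lay behind these values. All 10 LSK markers checked were detected, and their summed signal was 119679 to 136921 in WT and 97433 to 111523 in dKO. Kit, which encodes c-Kit, the receptor of the gate, was at 44484 to 47837 in WT and at 4099 to 11935 in dKO. Ly6a, which encodes Sca-1, was at 1990 to 2339 and 1968 to 13218, and Cd48 at 3179 to 5266 and 11723 to 26688. Hlf, Mecom and Slamf1 lay below WT in all dKO libraries, and Cd34, Flt3, Procr and Hoxa9 overlapped WT. Traf6 was at 1935 to 3006 in WT and at 2474 in the library labelled Traf6 KO 1, against 854 and 568 in the other Traf6 KO libraries. In dKO 1, dKO 2 and dKO 3 Traf6 was at 799, 1313 and 967. Tet2 KO, whose label does not name Traf6, held it at 3127, 1432 and 1776. Tet2 KO 2 and Tet2 KO 3 thus lay below every WT library in Traf6 signal. Tet2 was at 525 to 783 in WT and at 668 in the library labelled Tet2 KO 1, against 403 and 486 in the other Tet2 KO libraries. In Traf6 KO, whose label does not name Tet2, it was at 722, 339 and 427, and in dKO at 326, 197 and 261. Tet2 signal thus did not separate Tet2 KO from Traf6 KO, and it does not show which Tet2 KO libraries carry the deletion. Traf6 KO 1 alone held reads of both Xist (1574) and the Y-linked Eif2s3y (1524) at such levels. WT and dKO libraries had Eif2s3y at 2812 to 5669 and Xist at 17.0 or less, and Xist was at 990 or more in every Tet2 KO and Traf6 KO library. In comparisons of a single knockout with WT or with dKO, genotype and the difference in these sex-linked genes cannot be told apart. The library dKO 3 had a signal total of 39973900, against at most 28916100 elsewhere. Tet2 KO 1, Traf6 KO 1 and dKO 3 are called the doubted libraries below.

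Sequence just upstream of the start is shown for the 4 genes with enough signal to test, since methylated CG is both the mark of imprinting and the substrate of the Tet2 enzyme. Methylation itself was not measured. The windows were picked by gene start, not as the control regions that carry the imprint, so their CG are not to be read as imprint marks. The windows are 250 bases ending at a RefSeq start (build GRCm38.p6), read 5′ to 3′ on the strand of the gene, with CG in capitals. The RefSeq start of Igf2r lies just upstream of the gene as GENCODE bounds it, and its first bases were not found in a GENCODE transcript, unlike those of the other windows. The Grb10, Ndn and Gnas windows lie inside the genes as GENCODE bounds them, and the Ndn window lies within its GENCODE exon. Grb10 at chr11:12037421-12037670 (minus strand) and Igf2r at chr17:12769707-12769956 (minus strand) are the pair that fell in dKO. Ndn at chr7:62348027-62348276 (plus strand) and Gnas at chr2:174329756-174330005 (plus strand) did not pass the test there in the values as deposited.
Grb10: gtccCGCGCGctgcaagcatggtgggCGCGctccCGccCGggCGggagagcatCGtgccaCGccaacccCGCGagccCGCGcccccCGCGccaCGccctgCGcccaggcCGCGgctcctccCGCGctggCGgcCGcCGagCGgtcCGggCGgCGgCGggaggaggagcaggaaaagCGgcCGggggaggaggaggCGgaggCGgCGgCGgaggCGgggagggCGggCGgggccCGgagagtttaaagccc
Igf2r: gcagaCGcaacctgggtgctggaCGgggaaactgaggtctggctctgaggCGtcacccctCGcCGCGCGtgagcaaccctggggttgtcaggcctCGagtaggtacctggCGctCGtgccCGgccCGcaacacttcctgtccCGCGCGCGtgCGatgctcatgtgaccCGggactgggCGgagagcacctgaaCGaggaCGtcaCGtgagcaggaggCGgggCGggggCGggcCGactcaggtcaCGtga
Ndn: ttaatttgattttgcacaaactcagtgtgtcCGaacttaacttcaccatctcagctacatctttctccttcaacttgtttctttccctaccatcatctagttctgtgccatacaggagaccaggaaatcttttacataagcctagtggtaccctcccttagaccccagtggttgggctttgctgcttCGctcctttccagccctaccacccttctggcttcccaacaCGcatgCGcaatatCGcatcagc
Gnas: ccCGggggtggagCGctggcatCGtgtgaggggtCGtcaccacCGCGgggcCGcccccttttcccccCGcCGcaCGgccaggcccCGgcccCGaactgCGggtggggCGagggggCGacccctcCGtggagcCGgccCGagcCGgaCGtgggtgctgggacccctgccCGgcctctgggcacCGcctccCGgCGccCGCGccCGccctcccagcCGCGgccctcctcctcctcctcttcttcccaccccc
The Grb10 window holds 40 CG, a count reached by 1.31% of 32851 RefSeq windows of this length, whose median is 6. A further Grb10 start has 8 CG, which 43.0% of windows reach. The Igf2r window holds 27 CG (8.56% of windows have as many) and the Gnas window 29 (6.78%), the richest of 4 Gnas starts, which range from 14 to 29. The Ndn window holds 5 CG, reached by 55.6% of windows. Whether the CG count bears on the change in dKO was not tested. No RefSeq window was matched to H19.

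Only 4 of the 10 genes reached a signal of 10 in at least 3 libraries, the condition for testing: Grb10, Gnas, Igf2r and Ndn. Divided by the length of the longest transcript, the WT mean signal per kilobase was 246 for Grb10, 124 for Gnas, 28.4 for Ndn and 26.2 for Igf2r. It was 3.93 for Mest, 1.77 for Plagl1, 0.621 for Igf2, 0.103 for H19, 0.0544 for Peg3 and 0.0383 for Meg3. In dKO the same measure was 128 for Gnas and 29.0 for Grb10, so Gnas, below Grb10 in WT, was above it in dKO. For Ndn it was 20.3 and for Igf2r 3.23. H19, Meg3 and Igf2 itself were close to the limit of detection in these LSK libraries, and the results turn on the 4 tested genes.

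**Figure D1:**
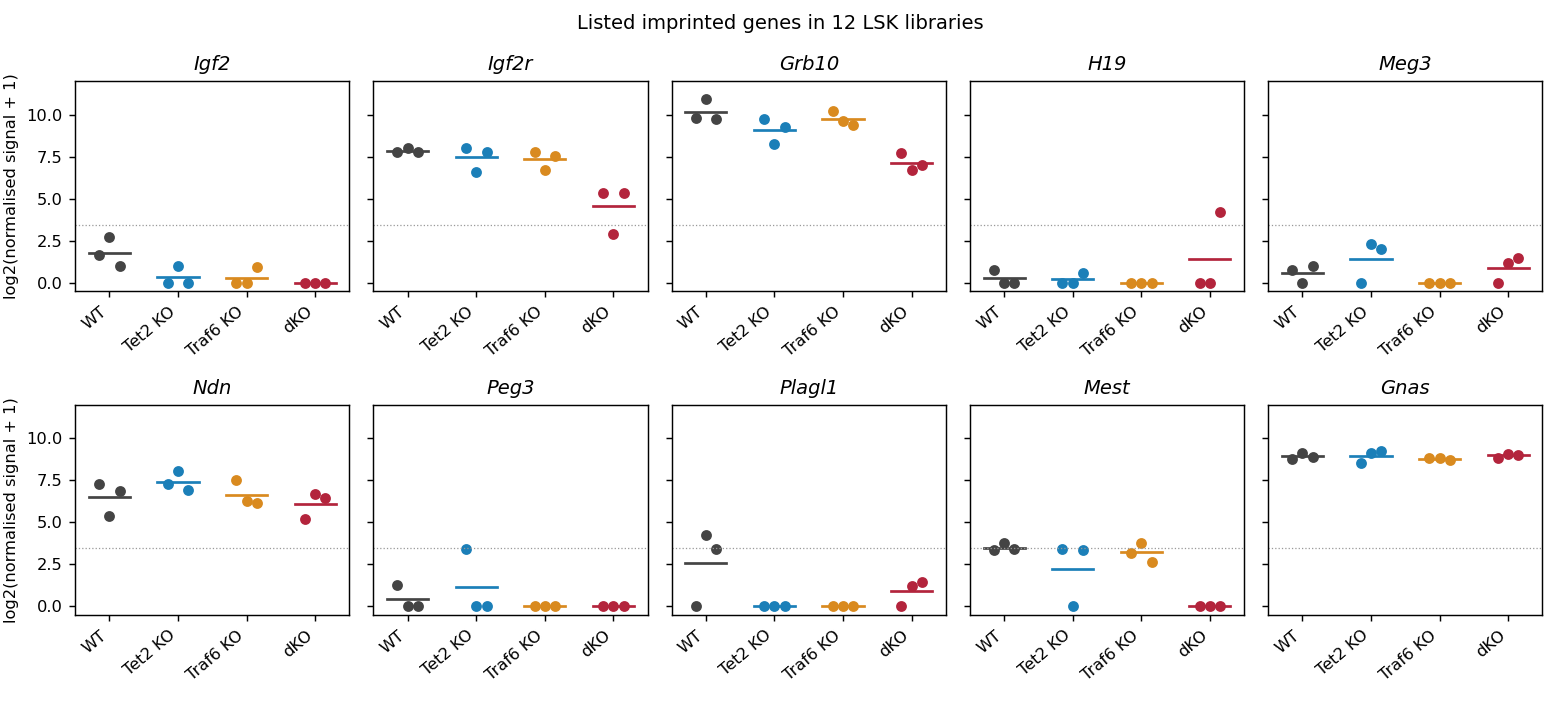
Signal of the 10 imprinted genes in each of 12 libraries, as log2(signal + 1), with a point per library, a bar at the mean of a genotype, and a dotted line at a signal of 10. Grb10 and Igf2r lie lowest in the 3 dKO libraries, Gnas is level across genotypes, and H19, Igf2, Meg3, Peg3, Plagl1 and Mest stay near or under the dotted line.

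The insulin-like growth factor axis comes first, since it holds the ligand Igf2, the receptor Igf2r that takes IGF2 into the cell for breakdown, and the adaptor Grb10, which dampens the insulin and IGF1 receptors. Igf2 (chromosome 7, 142650766 to 142666816, minus strand, GRCm38) is the paternally expressed growth factor. It was read 11 times in all 12 libraries. The WT libraries held 3, 5 and 1 reads, Tet2 KO 0, 1 and 0, Traf6 KO 0, 0 and 1, and dKO 0, 0 and 0. WT was the only genotype with a read in each library, at a signal of 0.962 to 5.71, and dKO the only one with none. A count of 0 allows up to 3 reads, a signal of 2.82 to 5.36 in the dKO libraries, and the WT values lay around that limit. With no filter on low values limma called Igf2 lower in dKO against WT (adjusted p = 0.0215), and an exact two-sided permutation test gave p = 0.1, the smallest that 3 against 3 libraries allow. Of the exon bases of Igf2, 62.8% are shared with the overlapping gene model Gm49394. That model is absent from the genes of the expression table, so it has no signal to set beside Igf2. Whether the counting lost Igf2 reads to the overlap was not tested.

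Igf2r (chromosome 17, 12682406 to 12769664, minus strand), expressed from the maternal copy in most mouse tissues, fell in dKO. Its signal was 221, 258 and 218 in WT, 255, 95.8 and 217 in Tet2 KO, with 220.1, 103 and 183 in Traf6 KO and only 40.4, 6.52 and 39.3 in dKO. All 3 dKO libraries lay below every other library, while the Tet2 KO and Traf6 KO ranges overlapped WT. In dKO against WT the log2 change was -3.33 ± 0.634 (SE, limma adjusted p = 0.00165). Against Tet2 KO it was -2.92 ± 0.634 (adjusted p = 0.00922), and against Traf6 KO -2.80 ± 0.634 (adjusted p = 0.00746). These 3 comparisons share the dKO libraries, of which dKO 2 held 5 Igf2r reads. Without dKO 2 the changes were -2.51 against WT (adjusted p = 0.005), -2.10 against Tet2 KO (adjusted p = 0.0308) and -1.99 against Traf6 KO (adjusted p = 0.0229). The order of the genotype means was WT 233 ± 22.2, Tet2 KO 189 ± 83.2, Traf6 KO 169 ± 59.7 and dKO 28.7 ± 19.2 (SD, n = 3), and only the last step was free of overlap.

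Grb10 (chromosome 11, 11930508 to 12038683, minus strand), maternally expressed outside the nervous system, fell in dKO as well. The WT libraries held 905, 1984 and 841, Tet2 KO 850.1, 302 and 627, Traf6 KO 1166, 785 and 668, and dKO 208, 104 and 127. The dKO libraries again lay below all others. WT 2 stood apart upward at 1984, and Tet2 KO 2, the lowest of the single knockouts, was still above dKO 1. In dKO against WT the log2 change was -3.02 ± 0.447 (SE, limma adjusted p = 0.000487), against Tet2 KO -1.95 ± 0.447 (adjusted p = 0.0106), and against Traf6 KO -2.59 ± 0.447 (adjusted p = 0.00238). Genotype means ran from WT at 1243 ± 643 through Traf6 KO at 873 ± 260 and Tet2 KO at 593 ± 276 to dKO at 147 ± 54.7 (SD, n = 3). Neighbouring ranges overlapped except for the step to dKO.

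These calls have to be read against a genotype in which a large share of all genes moved. In dKO against WT, 2 of the 4 tested genes were called lower and 0 higher, where 48.3% of all 14045 tested genes were called and 26.5% were called lower. Groups that did not overlap, with dKO below, were found for 2 of the 4 and for 30.5% of all genes. Against Tet2 KO 2 of the 4 were called lower, with 35.3% of all genes called and 19.9% called lower. Against Traf6 KO 2 of the 4 were called lower, with 38% of all genes called, 20.7% called lower and 21.8% with dKO wholly below. In size, 290 of the 14045 tested genes had a more negative dKO-to-WT change than Igf2r and 409 a more negative change than Grb10.

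Transcript length moved with the dKO change over the whole table. The median log2 change was 1.55 for 959 genes whose longest transcript has at most 1000 nucleotides, -1.20 for 4116 genes between 4000 and 8000 nucleotides and -1.46 for 690 genes over 8000 nucleotides. The longest transcript is 8887 nucleotides for Igf2r and 5061 for Grb10, against 3694 for Ndn and 3947 for Gnas. Within their own length classes, 41 of 690 genes lay below Igf2r and 220 of 4116 below Grb10. After a trend on length and GC content was taken off each library, Igf2r was at -2.28 (limma adjusted p = 0.00981) and Grb10 at -1.91 (adjusted p = 0.00353) in dKO against WT, where 14.1% of genes were called lower. With the trend removed, the change against Tet2 KO was -1.06 for Grb10 (adjusted p = 0.0751) and -2.22 for Igf2r (adjusted p = 0.0239), where 6.07% of genes were called lower. Against Traf6 KO it was -1.75 for Grb10 (adjusted p = 0.0108) and -1.70 for Igf2r (adjusted p = 0.0518), where 10.1% were.

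**Figure D2:**
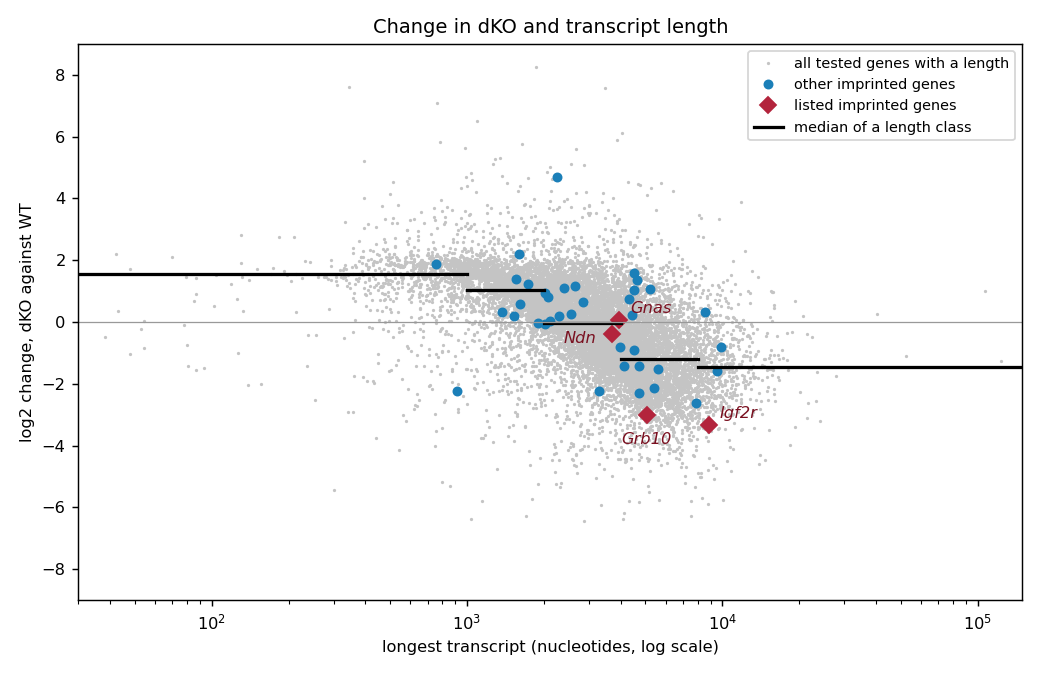
Log2 change of dKO against WT over the length of the longest transcript on a log scale, for all tested genes with a length (grey), the other imprinted genes (blue) and the listed ones (red diamonds). Black bars give the median of each length class, from 1.55 for the shortest to -1.46 for the longest, and Igf2r and Grb10 lie below the bars of their classes.

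Libraries that stand apart changed part of this. With the 3 doubted libraries left out, dKO against WT was -3.72 for Igf2r (limma adjusted p = 0.00399) and -2.95 for Grb10 (adjusted p = 0.00222), and against Traf6 KO both were still called. Of all genes, 40.3% were called against WT and 11.6% against Traf6 KO in this setting. Against Tet2 KO neither was called without the doubted libraries: Grb10 was at -1.55 (adjusted p = 0.101) and Igf2r at -3.04 (adjusted p = 0.0709). Only 1.16% of all genes were called there, in place of 35.3% with all libraries. Leaving out Tet2 KO 1 alone gave -1.63 for Grb10 (adjusted p = 0.0577) and -2.64 for Igf2r (adjusted p = 0.0511) in dKO against Tet2 KO, where 6.17% of all genes were called.

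In the single knockouts none of the 4 tested genes passed the threshold. Tet2 KO against WT called 0 of 4, with 0.413% of all genes called, and Traf6 KO against WT called 0 of 4, with 0.271% of all genes called. edgeR and DESeq2 on the recovered reads also called 0 of the 4 in both. At an unadjusted limma p below 0.05, Tet2 KO had 1 of the 4, Grb10, and Traf6 KO had 0, where 8.44% and 7.80% of all genes were below it. Log2 changes of the 4 ranged from -1.07 to 0.91 in Tet2 KO and from -0.53 to 0.13 in Traf6 KO. Whether the dKO change exceeds the sum of the single ones was tested as an interaction, the step from Tet2 KO to dKO less the step from WT to Traf6 KO. It called 0 of 4 in limma, edgeR and DESeq2, with 0.221% of all genes called. The interaction was -2.39 ± 0.897 for Igf2r (adjusted p = 0.242) and -1.51 ± 0.633 for Grb10 (adjusted p = 0.260). Both were at an unadjusted p below 0.05, as were 18.6% of all genes.

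**Figure D3:**
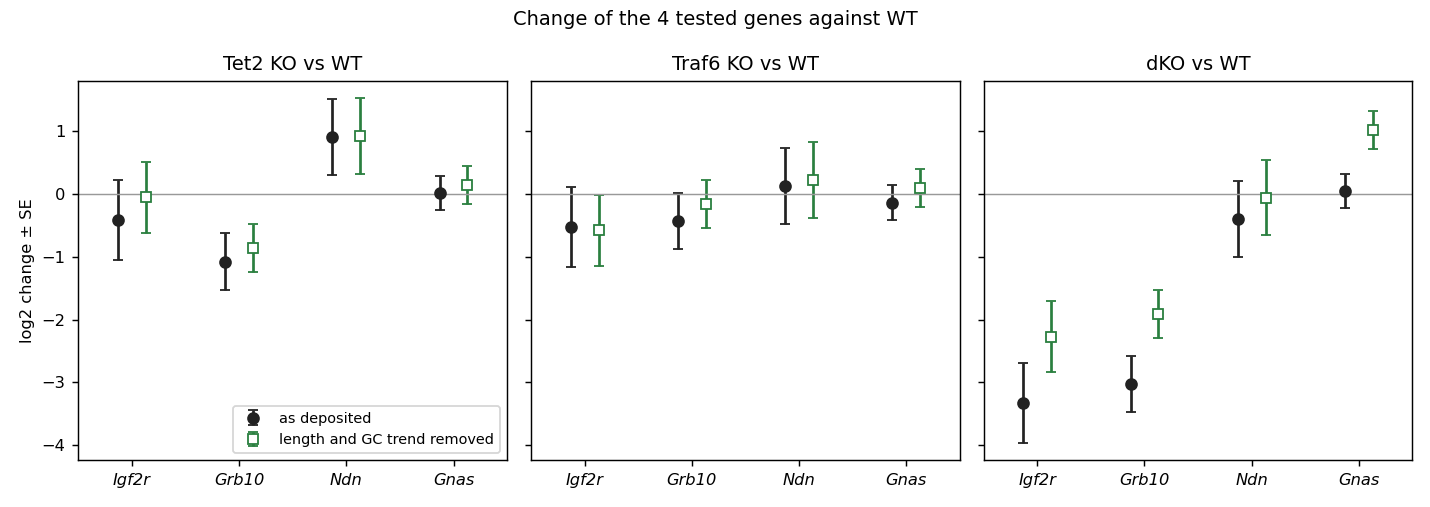
Log2 change against WT with its standard error for the 4 tested genes in Tet2 KO, Traf6 KO and dKO, as deposited (black circles) and after the trend on length and GC content was removed (green squares). Igf2r and Grb10 in dKO lie farthest from 0, at -3.33 and -3.02, and Gnas in dKO moves from 0.05 to 1.02 when the trend is removed.

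Gnas (chromosome 2, 174284320 to 174346744, plus strand) encodes the G protein subunit that stimulates adenylyl cyclase, and its locus gives several imprinted transcripts besides. Its signal was 445, 550 and 474 in WT, 365, 553 and 601 in Tet2 KO, with 457, 461 and 415 in Traf6 KO against 460, 544 and 516 in dKO. All 4 ranges overlapped. The dKO change was 0.05 with a 95% interval from -0.53 to 0.64 on the log2 scale (limma adjusted p = 0.889). After the trend on length and GC content was removed, Gnas was called higher in dKO against WT, at 1.02 ± 0.302 (adjusted p = 0.0219), where 15.5% of genes were called higher. The same setting called it higher against Traf6 KO (0.92, adjusted p = 0.0486, with 8.32% of genes called higher) but not against Tet2 KO (0.89, adjusted p = 0.0631).

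The antisense transcript Nespas of the same locus had no read in the 3 WT libraries and a signal of 36.6, 10.4 and 39.3 in dKO. It had 3, 0 and 0 reads in Tet2 KO and 0, 2 and 7 in Traf6 KO. Set against a floor of 3 reads per WT library, Nespas was at least 10.2-fold higher in dKO. It met the condition for testing through the dKO libraries alone, so no p-value is given for it. Its exons cover 8.83% of the Gnas exon bases on the opposite strand, and the library kit does not mark strand, so reads from that stretch cannot be told apart.

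Ndn (chromosome 7, 62346569 to 62350262, plus strand) encodes necdin, a growth-restraining protein of the MAGE family that is expressed from the paternal copy and known in resting blood stem cells. The WT libraries were at 156, 39.99 and 118 and the Tet2 KO libraries at 157, 264 and 121, then 181, 75.4 and 71.0 in Traf6 KO against 36.6, 100.4 and 87.6 in dKO. The Tet2 KO libraries were all above the dKO libraries, and every other pair of genotypes overlapped. That step was -1.31 ± 0.610 (dKO against Tet2 KO, limma adjusted p = 0.108) and did not pass the threshold, while 24.2% of all genes had dKO groups lying wholly below Tet2 KO. Genotype means were 181 ± 74.7 in Tet2 KO, 109 ± 62.3 in Traf6 KO, 105 ± 59.2 in WT and 74.9 ± 33.8 in dKO (SD, n = 3). The change in dKO against WT was -0.40, with a 95% interval from -1.71 to 0.92.

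Mest (chromosome 6, 30723547 to 30748465, plus strand), paternally expressed and coding for a protein of the alpha/beta-hydrolase fold, was read in 8 of the 12 libraries. The counts were 13, 11 and 10 reads in WT, 9, 0 and 18 in Tet2 KO, 9, 11 and 6 in Traf6 KO, with 0 reads in dKO 1, dKO 2 and dKO 3. The dKO libraries and Tet2 KO 2 were the ones without a read. Mean signal was 10.5 in WT and 8.76 in Traf6 KO, so that against a floor of 3 reads per dKO library Mest was at least 2.60-fold lower in dKO than in WT and at least 2.17-fold lower than in Traf6 KO. An exact two-sided permutation test of dKO against WT gave p = 0.1, the smallest that 3 against 3 libraries allow. With no filter on low values, limma called Mest lower in dKO against WT (adjusted p = 0.0118) and against Traf6 KO (adjusted p = 0.0305). Of its exon bases, 23.1% lie opposite Copg2, a coat protein gene at a signal of 947 to 4019, and those reads cannot be told apart without strand.

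Plagl1 (chromosome 10, 13060504 to 13131694, plus strand), a zinc finger transcription factor that slows growth, was read 28 times in all, nearly always in WT. The counts were 0, 16 and 10 reads in WT, 0, 1 and 1 in dKO, and none in any Tet2 KO or Traf6 KO library. Since WT 1 was also without a read, the WT range overlapped every knockout, and the exact permutation p was 0.4 for each against WT. Peg3 (chromosome 7, 6703892 to 6730431, minus strand), a paternally expressed zinc finger gene, had 11 reads, 9 of them in Tet2 KO 1 and 2 in WT 1.

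H19 (chromosome 7, 142575529 to 142578143, minus strand) is the maternally expressed long non-coding RNA that shares a control region with Igf2. It had 12 reads, 10 of them in dKO 3 and the others in WT 1 and Tet2 KO 3. Its signal of 17.9 in dKO 3, a doubted library, stood beside 0 in dKO 1 and dKO 2. Meg3 (chromosome 12, 109541001 to 109571726, plus strand), the maternally expressed non-coding RNA of the Dlk1 domain, had 14 reads, with 4 in Tet2 KO 2 and 6 in Tet2 KO 3. No other library held more than 1 read of Meg3. Neither gene had a genotype in which every library was above the floor of 3 reads.

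Across the 12 libraries, Grb10 and Igf2r varied together (Pearson r = 0.90, Spearman rho = 0.94 on log2 signal), which is given as a description. The tested gene most like Grb10 was Exoc6b (r = 0.975), and the one most like Igf2r was Per2 (r = 0.978). Ndn was closest to Apof (r = 0.849), which has a signal of at most 20.3, and Gnas to Tnfrsf1a (r = 0.829). Exoc6b and Per2 have longest transcripts of 5439 and 5833 nucleotides.

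Summed marker signal of some other cell types differed between WT and dKO without overlap, and that of others overlapped. For 9 B, T and NK cell markers the sum was 4939 to 5882 in WT and 8002, 12541 and 78411 in dKO 1, dKO 2 and dKO 3, so the highest value is that of a doubted library. For 8 neutrophil and monocyte markers it was 9815 to 17390 in WT and 12776, 26802 and 49355 in the same 3 dKO libraries, an overlap with WT through dKO 1. For 14 stromal and endothelial markers the sum was 6360 to 8063 in WT and 3449 to 5339 in dKO. Only 8 of the 14 had enough signal to test, and Pdgfrb alone was at 1917 to 2874 in WT and 547 to 1714 in dKO. The stromal markers Lepr and Pdgfra were at most at 0.962 and at 0 in WT, so the sum does not measure a stromal fraction. Erythroid markers summed to 608 to 1143 in WT and 1863 to 2120 in dKO, and the 5 megakaryocyte markers overlapped, at 8643 to 10098 and 6427 to 10096. Markers of fetal blood cells stayed between 0 and 45.4 in all libraries. Every stromal and endothelial marker had a read in at least 1 library, and 1 marker of the B, T and NK list and 1 of the fetal list were at 0 throughout. Their part in the changes of Igf2r and Grb10 was not tested.

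Beyond the 10 genes, a wider list of 77 imprinted genes was read, of which 69 were in the table, 10 at 0 in every library, and 41 could be tested. In dKO against WT, 11 rose, 9 fell and 21 were not called, which is 48.8% against the 48.3% of all genes (21.9% called higher), and the median log2 change was 0.20 against -0.09. Genes that rose included Phlda2, a growth-limiting gene of the placenta, at 1.86 (limma adjusted p = 0.00961), Commd1, a copper and NF-kB regulator, at 1.59 (adjusted p = 0.0108), and H13, an intramembrane protease, at 1.05 (adjusted p = 0.00262). The others that rose were Gatm, Peg12, Pon2, Pon3, Slc22a18, Tspan32 and Tssc4, and the count includes Nespas, which was tested only because of its dKO values. Besides Grb10 and Igf2r, those that fell included Herc3, a ubiquitin ligase, at -2.28 (adjusted p = 0.00116), Atp10a, a lipid flippase, at -2.14 (adjusted p = 0.00163), and Ube3a, a ubiquitin ligase, at -0.81 (adjusted p = 0.0107). Inpp5f, Ppp1r9a, Slc22a3 and Trappc9 fell as well. Whether each gene of the list is expressed from a single parental copy in LSK cells was not measured. Genes of the list thus moved in both directions, and the list's direction depends on the scaling. With equal library totals 6 rose and 9 fell (16.3% and 29.7% of all genes), with a median of -0.05. With the trend on length and GC content removed, 10 were higher and 6 lower, where 15.5% and 14.1% of all genes were. Without the doubted libraries 7 were higher and 11 lower, where 17.3% and 23.0% of all genes were.

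**Figure D4:**
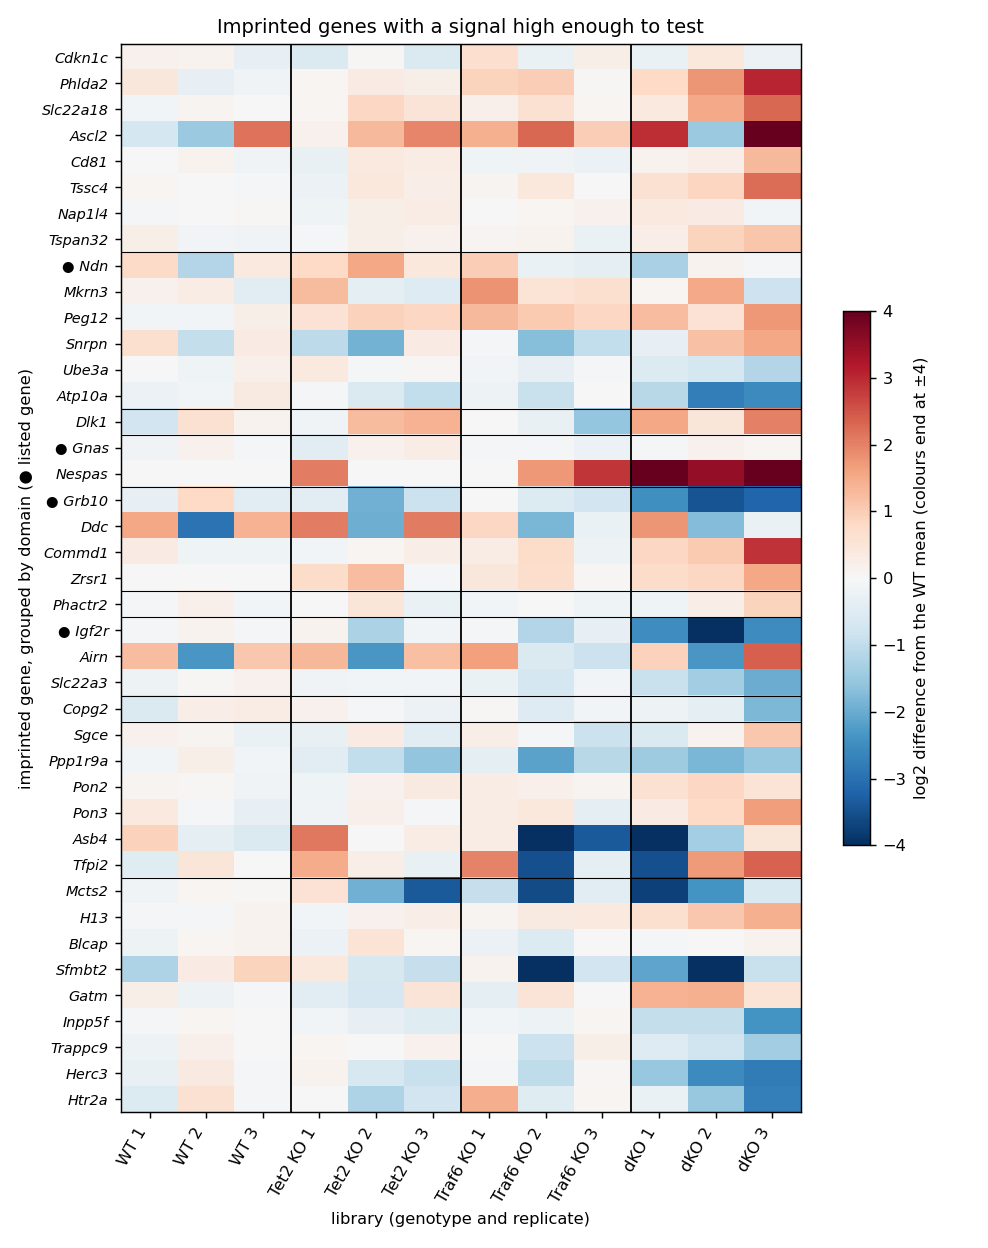
Heat map of the 41 tested imprinted genes (rows, grouped by domain, with the listed genes marked by a dot) in 12 libraries (columns), as log2(signal + 1) minus the WT mean of that gene, with colours ending at ±4. Grb10 and Igf2r are blue in all 3 dKO columns, Nespas is red there, and genes of 1 domain take both colours.

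Domain partners did not all follow the listed gene. Slc22a3, a cation transporter near Igf2r, fell with it in dKO against WT (-1.41 ± 0.267, limma adjusted p = 0.00157), at 6237, 7383 and 8136 in WT and 3926, 2761 and 1821 in dKO. It fell against Tet2 KO and Traf6 KO as well. Airn, the antisense RNA that starts within Igf2r, stayed at a signal of 0 to 25.0 and shares no exon base with Igf2r. Near Ndn, Peg12 rose while Atp10a and Ube3a fell. Dlk1, in the domain of Meg3, was at 9.93, 27.4 and 19.2 in WT and 53.5, 24.8 and 73.3 in dKO, with overlapping ranges. Cdkn1c, a cell cycle inhibitor known in resting stem cells, was at 431.7 to 1044 over all libraries and was not called. The most abundant of the 41 were Nap1l4, Tspan32 and Cd81, with means over all libraries of 13689, 12899 and 9456.

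In the single knockouts the wider list gave 0 calls of 41 in limma, edgeR and DESeq2, with 2 genes each at an unadjusted limma p below 0.05 (Grb10 and Ppp1r9a in Tet2 KO, Peg12 and Ppp1r9a in Traf6 KO), a share under the 8.44% and 7.80% of all genes. Against Tet2 KO, dKO had 6 higher and 8 lower, and against Traf6 KO 7 higher and 8 lower, which are 34.1% and 36.6% of the 41 beside 35.3% and 38% of all genes. The 41 include Nespas, which was tested only because of its dKO values.

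Genes that keep or erase imprints mostly fell in dKO. Of 18 such genes 15 were tested, and 12 fell and 0 rose against WT, a share of 80% where 26.5% of all genes were called lower. Zfp445, a zinc finger protein that guards imprints, was at 1956, 1925 and 1970 in WT and 389, 41.7 and 89.4 in dKO (-4.09 ± 0.605, limma adjusted p = 0.000487). Zfp57, which has the same task, was at -1.92 ± 0.567 (adjusted p = 0.0143). Dnmt1, the maintenance DNA methyltransferase, was at -2.09 ± 0.362 (adjusted p = 0.00101), and the others that fell were Dnmt3a, Dnmt3b, Setdb1, Smchd1, Tet1, Tet2, Tet3, Trim28 and Uhrf1. Tet2 is the targeted gene. With the trend on length and GC content removed, 4 of the 15 were lower, Setdb1, Smchd1, Zfp445 and Zfp57, beside 14.1% of all genes, and without the doubted libraries 11 of the 15 were lower, beside 23.0% of all genes. Tet2 KO and Traf6 KO each gave 0 calls in limma, edgeR and DESeq2 on this list, in limma with 3 and 0 of the 15 at an unadjusted p below 0.05, beside 8.44% and 7.80% of all genes.

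Of 17 further genes of insulin-like growth factor signalling 8 were tested, of which 1 fell and 1 rose in dKO against WT, beside 26.5% and 21.9% of all genes. In dKO against WT, Igf1r, the receptor that signals growth, fell (-1.81 ± 0.439, limma adjusted p = 0.00548), from 380, 700.3 and 483 in WT to 194, 171 and 87.6. Igfbp4, a binding protein that holds the growth factors, rose (0.86 ± 0.232, adjusted p = 0.00932), from 11720, 14247 and 19214 in WT to 26390, 26668 and 27246. With the trend on length and GC content removed, Igf1r was at -0.87 (adjusted p = 0.0853), and Igfbp4, Igf2bp2, Insr and Irs2 were higher, which is 4 of the 8 beside 15.5% of all genes. With equal library totals Igfbp4 was not called.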

How the data were processed

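Full-length cDNA libraries of sorted LSK cells were made with a SMART-Seq low-input kit, which does not mark strand, per the labels' protocols, and sequenced on a HiSeq 4000. Tools named in the submitters' processing notes are STAR, featureCounts, bcl2fastq and DESeq2, with GRCm38 and mm10 as builds. Their versions, the annotation and the strand option used in counting are not given in the sources used here. The authors deposited a table of normalised signal for 37187 genes in 12 libraries. In every library 100% of its values were whole multiples of the smallest value (tolerance 1e-06), so reads per gene were recovered. A library total of 22169673 to 53921402 reads sets the precision, and the floor of 3 reads covers counting error only, since PCR copies are not independent molecules.

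Differences were tested with limma 3.58.1 (R 4.3.3, trend and robust) on log2(signal + 1) over all 12 libraries in 4 groups, for 14045 genes with a signal of at least 10 in at least 3 libraries. Fold changes on this scale understate those of genes with few reads. Benjamini-Hochberg adjustment ran over all tested genes of each of 6 comparisons, with a threshold of 0.05. The 10 genes, the wider lists and the tests were chosen with earlier results of these data known. A change with its test is printed for a listed gene where it was called or where its groups do not overlap, and otherwise mostly as a range. From the wider lists the text names genes that were called, the 3 most abundant and partners in the domain of a listed gene. For each tested listed gene, the gene with the highest Pearson r is named, predicted genes left out.

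Positions, lengths and overlaps came from GENCODE M21 (30457 genes matched, 28351 by symbol and 2106 by synonym), with a length for 97.2% of tested genes. Alternatives were a pseudocount of 5, no filter, equal library totals, edgeR 4.0.16 and DESeq2 1.42.0 on the recovered reads, a replicate block, only the groups compared, a loess trend on length and GC content (span 0.5) taken off each library, also with the block, and each library left out. Leaving out the 3 doubted libraries together was added after the data were seen. On the recovered reads edgeR called 6539 genes in dKO against WT and DESeq2 7478. On simulated reads of 14045 genes with 4-fold changes in dKO against WT, limma recovered 97.5% of 200 changed genes. Those reads had the same dispersion for every gene, no length trend and no library standing apart. The share recovered thus checks that the fit runs as meant and is not the power of the real comparisons.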

Additional observations from a re-analysis of the deposited data

How the results depend on the processing

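Grb10 and Igf2r were past the threshold in dKO against WT under all 22 alternatives, with log2 changes from -3.31 to -1.91 and from -3.74 to -2.28. No change of Grb10 or Igf2r in the 3 dKO comparisons, or of Ndn in dKO against Tet2 KO, turned its direction under these alternatives. With no filter on low values, 4 of the 10 genes were called lower in dKO against WT instead of 2, beside 14.6% of all genes, Mest and Igf2 being the added pair, the latter with all dKO libraries at 0 and a WT group near the floor. In dKO against Tet2 KO the calls fell from 2 to 0 with only the compared groups in the fit or without the doubted libraries, and to 1 with the trend on length and GC content removed, also with the replicate block. Of all genes, 0.171%, 1.16%, 15.1% and, with the block, 14.7% were called there in these settings, in place of 35.3%. Leaving out 1 library at a time gave 0 to 2 calls there, the 0 without Tet2 KO 1. In dKO against Traf6 KO 1 was called with only the compared groups in the fit, where Igf2r was at limma adjusted p = 0.0666. Of all genes, 6.91% were called there, in place of 38%. The interaction gave 0 to 1 calls with 1 library left out, the 1 without dKO 1. In that setting 17.4% of all genes were called, in place of 0.221%. The cause was not tested. Ndn in dKO against Tet2 KO was past the threshold under none of the 22 alternatives (adjusted p from 0.0592 to 0.327).

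The replicate block, which treats equal replicate numbers as pairs, changed no call of the 10 genes in the values as deposited. With the trend removed, it brought Igf2r in dKO against Traf6 KO from adjusted p = 0.0518 to 0.0306. It gave 2944 higher and 3630 lower genes in dKO against WT, against 3074 and 3716 without it, and 18 calls on the wider imprinted list in place of 20. Equal numbers did not mark shared deviations: their correlations ran from -0.18 to 0.19, and 3 of 18 were over 0.1.

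Over all genes, equal library totals moved the median dKO change against WT from -0.09 to -0.34 and gave 2291 higher and 4166 lower. With the trend removed, dKO called 4051, 2060 and 2518 genes against WT, Tet2 KO and Traf6 KO, in place of 6790, 4963 and 5342. With only the compared groups, the latter pair gave 24 and 970, Tet2 KO against WT 327 in place of 58. Without the doubted libraries the counts against Tet2 KO and Traf6 KO were 163 and 1633. Without Tet2 KO 1, dKO against Tet2 KO gave 867, and without dKO 1 the interaction gave 2445 in place of 31. DESeq2 called 286, 167 and 227 genes in Tet2 KO, Traf6 KO and the interaction, in place of 58, 38 and 31. For H19, Igf2, Meg3, Peg3, Plagl1 and Mest the number of reads limits any comparison.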
